A study of Mus musculus with 20 samples.

Results

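The genes described here are 6 matrix metalloproteinases (Mmp2, Mmp3, Mmp9, Mmp10, Mmp13 and Mmp14) and 3 tissue inhibitors of metalloproteinases (Timp1, Timp2 and Timp3), taken by symbol from a table of 15757 genes, in which all 9 were found. They were measured by messenger RNA sequencing in embryonic fibroblasts of OG2 mice, in which Oct4 regulatory sequence drives green fluorescent protein, during reprogramming by the retroviral factors Oct4, Sox2, Klf4 and Myc (OSKM) in iCD1 medium. All groups received OSKM. The control arm also received an shRNA against luciferase (shLuci) and the knockdown arm an shRNA against Ddx10, which encodes an RNA helicase of the DEAD-box family that works in ribosome assembly, and both were sampled at days 0, 1, 3, 5 and 7 with 2 replicates, giving 10 groups and 20 libraries. The labels show 1 shRNA against Ddx10 and no rescue, and age or sex of the embryos is not given in the sources used here. The 9 genes were proposed with results of these data in view, and which values guided the choice is not recorded. Their differences are therefore given as descriptions, with standard errors and without p-values.

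Matrix metalloproteinases (MMPs) are zinc endopeptidases that cut collagens, proteoglycans, adhesion molecules and growth factor carriers around the cell. Most are secreted as inactive proenzymes that other proteases open, and Mmp14 is held in the cell membrane, where it activates proMmp2 together with Timp2. The TIMPs block the active site of the enzymes, and Timp3 stays bound to the matrix. Fibroblasts are a main source of both families, and the transcription factor AP-1, a dimer of Fos and Jun proteins, is known to bind the promoters of several inducible MMP genes.

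Mmp13, Mmp3 and Mmp10 lie in 1 cluster of MMP genes on chromosome 9, at chr9:7272514-7283331, chr9:7445822-7455975 and chr9:7502352-7510240 in mm10, all on the plus strand. The other members lie apart, Mmp2 at chr8:92827291-92853420, Mmp9 at chr2:164940780-164955850, Mmp14 at chr14:54431612-54445364, Timp1 at chrX:20870166-20874735, Timp2 at chr11:118301069-118355740 on the minus strand and Timp3 at chr10:86300372-86349506. Promoter windows of 300 bases, from 250 before to 50 after the annotated start, were taken from RefSeq (GRCm38.p6) and matched for 7 of the 9 genes. The others are Mmp2 and Mmp9. The windows of the 3 cluster genes, which all rose to day 3 in the values below, are shown with that of Mmp14, a member of the same family that did not rise. The capitals mark matches to the AP-1 motif TGAGTCA or its reverse complement TGACTCA.
Mmp3: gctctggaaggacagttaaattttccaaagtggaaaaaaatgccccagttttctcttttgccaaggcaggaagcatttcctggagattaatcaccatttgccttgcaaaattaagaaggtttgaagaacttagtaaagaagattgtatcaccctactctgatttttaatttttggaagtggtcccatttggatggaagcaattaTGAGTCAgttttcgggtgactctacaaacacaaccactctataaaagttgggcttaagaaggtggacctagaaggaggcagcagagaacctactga
Mmp10: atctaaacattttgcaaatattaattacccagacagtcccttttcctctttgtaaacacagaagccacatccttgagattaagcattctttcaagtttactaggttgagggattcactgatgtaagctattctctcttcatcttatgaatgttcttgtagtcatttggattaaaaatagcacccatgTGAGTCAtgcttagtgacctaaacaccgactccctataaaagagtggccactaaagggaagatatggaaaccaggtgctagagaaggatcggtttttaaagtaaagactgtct
Mmp13: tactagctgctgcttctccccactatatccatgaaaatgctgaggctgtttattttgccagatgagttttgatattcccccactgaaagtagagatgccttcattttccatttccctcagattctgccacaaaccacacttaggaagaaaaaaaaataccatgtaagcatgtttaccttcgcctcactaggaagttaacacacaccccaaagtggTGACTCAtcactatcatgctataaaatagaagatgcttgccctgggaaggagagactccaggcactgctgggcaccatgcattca
Mmp14: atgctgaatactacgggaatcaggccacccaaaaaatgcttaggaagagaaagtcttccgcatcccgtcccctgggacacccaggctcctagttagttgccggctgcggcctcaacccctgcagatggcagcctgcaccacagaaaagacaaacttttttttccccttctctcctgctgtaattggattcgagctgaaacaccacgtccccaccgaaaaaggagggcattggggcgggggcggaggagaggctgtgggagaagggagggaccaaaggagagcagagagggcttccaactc
The windows are printed 5′ to 3′ on the strand of the gene and lie at chr9:7445572-7445871, chr9:7502092-7502391, chr9:7272264-7272563 and chr14:54431348-54431647. Each of the 3 cluster windows held 1 match, with its first base at position -46 in Mmp3, -63 in Mmp10 and -35 in Mmp13 from the annotated start. No match was found in the windows of Mmp14, Timp1, Timp2 and Timp3. Of 32851 RefSeq windows of the same length, 5.2% held the motif on either strand. The letters TATAAA, searched on both strands, were also present in the windows of Mmp3, Mmp10 and Mmp13 and in none of the other 4, against 13.6% of all windows. GGGCGG, the GC box, showed the opposite split, with 2 matches each in Mmp14 and Timp3, 1 each in Timp1 and Timp2 and 0 in the 3 cluster genes, against 35.7% of windows with at least 1. The GC content was 40.0, 37.7 and 43.7% in Mmp3, Mmp10 and Mmp13, and between 55.0 and 68.7% in the other 4. Among other genes of the chromosome 9 cluster, the AP-1 motif was found at position -73 in Mmp1a, at -93 in Mmp1b, in 1 of the 2 windows of Mmp7, at -63, and in 1 of the 2 windows of Mmp12, at -44. The windows of Mmp8, Mmp20 and Mmp27 held none. A match describes these letters only, and binding was not measured.

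The library sums of the deposited normalized read counts were 15.7 M to 21.3 M, and depth, estimated from the spacing of low values, was roughly 12.0 M to 23.7 M reads per library. Replicates correlated at 0.981 to 0.989 across genes, and the 2 control libraries of day 1 differed most, with a median absolute log2 difference of 0.252. Ddx10 itself was lower in both knockdown libraries than in both control libraries at every day, by 1.58 on the log2 scale at day 1 (316 ± 4.55 against 512 ± 16.6 at day 0, 529 ± 0.913 against 815 ± 73.9 at day 7, SD, n = 2). In the limma fit its mean difference over the days was -0.999 (SE 0.05, adjusted p = 5.85e-08). Fibroblast markers, 12 of 12 in the table, summed to between 634930 and 686260 in the control libraries of day 0 and to between 166440 and 175250 at day 7. In bulk RNA, fewer cells of a type and less RNA per cell cannot be told apart.

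Levels below are normalized read counts of replicates 1 and 2, and differences are on the log2(value + 1) scale with the SE of the limma fit. A gene is said to have risen, fallen or been called where its adjusted p, over all 15757 genes, was under 0.05.

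Mmp3 and Mmp10, the stromelysins, which cut proteoglycans and can open other proMMPs, rose steeply within the first days of control reprogramming. Mmp3 stood at 5.26 and 10.1 in the control libraries of day 0, 99.5 and 85.1 at day 1, 351 and 261 at day 3, 164 and 333 at day 5 and 121 and 152 at day 7. The highest control library was replicate 1 of day 3, and all libraries from day 1 on were above both of day 0. The difference from day 0 was 5.19 (SE 0.29) at day 3 and 4.03 (SE 0.29) at day 7. Mmp10 went from 11.8 and 6.04 at day 0 to 111 and 87.9 at day 1 and 203 and 197 at day 3, and then stood at 50.1 and 67.8 at day 5 and 38.6 and 35.1 at day 7. Unlike Mmp3 it had left its peak by day 5, with no overlap between the libraries of days 3 and 5. Its difference from day 0 was 4.40 (SE 0.26) at day 3 and 1.99 (SE 0.26) at day 7.

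Mmp13, the main collagenase of rodents, which cuts fibrillar collagens, was the third of the cluster genes. It rose from 26.3 and 18.2 at day 0 to 44.4 and 55.1 at day 1 and 183 and 152 at day 3 in the control arm. The libraries of day 5 were far apart, at 29.3 and 80.8, and those of day 7 were back in the range of day 0, at 18.9 and 19.96. The difference from day 0 was 2.87 (SE 0.34) at day 3 and -0.17 (SE 0.34) at day 7. Only the day 3 rise of Mmp13 held in every alternative. At day 1 (1.14) the call was lost without control day 0 replicate 2 (0.89) or control day 1 replicate 2 (0.99), and at day 5 (1.12) without control day 0 replicate 2 (0.87) or control day 5 replicate 2 (0.40), as well as with quantile scaling (0.30). The day 1 call was also lost with library weights (1.14), and the day 5 call when only the libraries of the groups compared were fitted (1.12). With quantile scaling the value at day 7 became -1.18, so no statement on Mmp13 at day 7 against day 0 holds across scalings.

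Of the gelatinases, which cut denatured collagen and basement membrane collagen, Mmp9 fell at once. Mmp2 was lower at every later control day than at day 0, least so at day 3. Mmp9 stood at 186 and 200.04 at control day 0, 40.3 and 34.4 at day 1, 20.5 and 24.2 at day 3, 15.3 and 24.8 at day 5 and 12.7 and 14.6 at day 7. Every later control library was below both of day 0, with a difference of -2.34 (SE 0.29) at day 1 and -3.73 (SE 0.29) at day 7. Macrophage markers moved with this fall: of 14 in the table, 11 fell and 0 rose from day 0 to day 1, against 26.7 and 28.3% of all genes. Their summed level went from between 3070 and 4378 to between 559 and 651. Lyz2, a lysozyme of myeloid cells, had a mean of 2076 at control day 0 and 35.2 at day 1, Csf1r a mean of 237 and 7.14, and Tyrobp and C1qc were listed at 0 in both control libraries of day 1. The part of macrophage RNA in the fall of Mmp9 was not tested.

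Mmp2 was 5215 and 4937 at control day 0, 2887 and 3128 at day 1, 4157 and 3942 at day 3, 2888 and 3603 at day 5 and 2574 and 2803 at day 7. All later libraries lay below both of day 0, and the day 3 libraries stood above those of days 1, 5 and 7 without overlap. The difference from day 0 was -0.76 (SE 0.10) at day 1, -0.33 (SE 0.10) at day 3 and -0.92 (SE 0.10) at day 7. The call at day 3 was lost with quantile scaling (-0.06), without control day 0 replicate 1 (-0.29) and without control day 3 replicate 2 (-0.29).

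Mmp14, the membrane-type enzyme that activates proMmp2, was the most abundant of the 6 MMP transcripts by group mean per kb of exon in every group. Its control libraries held 11254 and 9962 at day 0, 8749 and 6089 at day 1, 7429.8 and 7612 at day 3, 6263 and 7052 at day 5 and 5602 and 6202 at day 7. The replicates of day 1 were far apart, and the libraries of day 7 were lower than those of day 3 without overlap. The day 1 call (-0.54) was lost when only the libraries of the groups compared were fitted. It differed from day 0 by -0.84 (SE 0.12) at day 7, or by -0.31 with quantile scaling, and at day 3 by -0.49, which became 0.01 with quantile scaling. Its calls at days 1, 3 and 5 were lost with that scaling, which moved Mmp14 upward at these days and shifted the median of all genes in the control arm by -0.0204 at day 1, -0.0739 at day 3, -0.139 at day 5 and -0.151 at day 7.

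**Figure D1:**
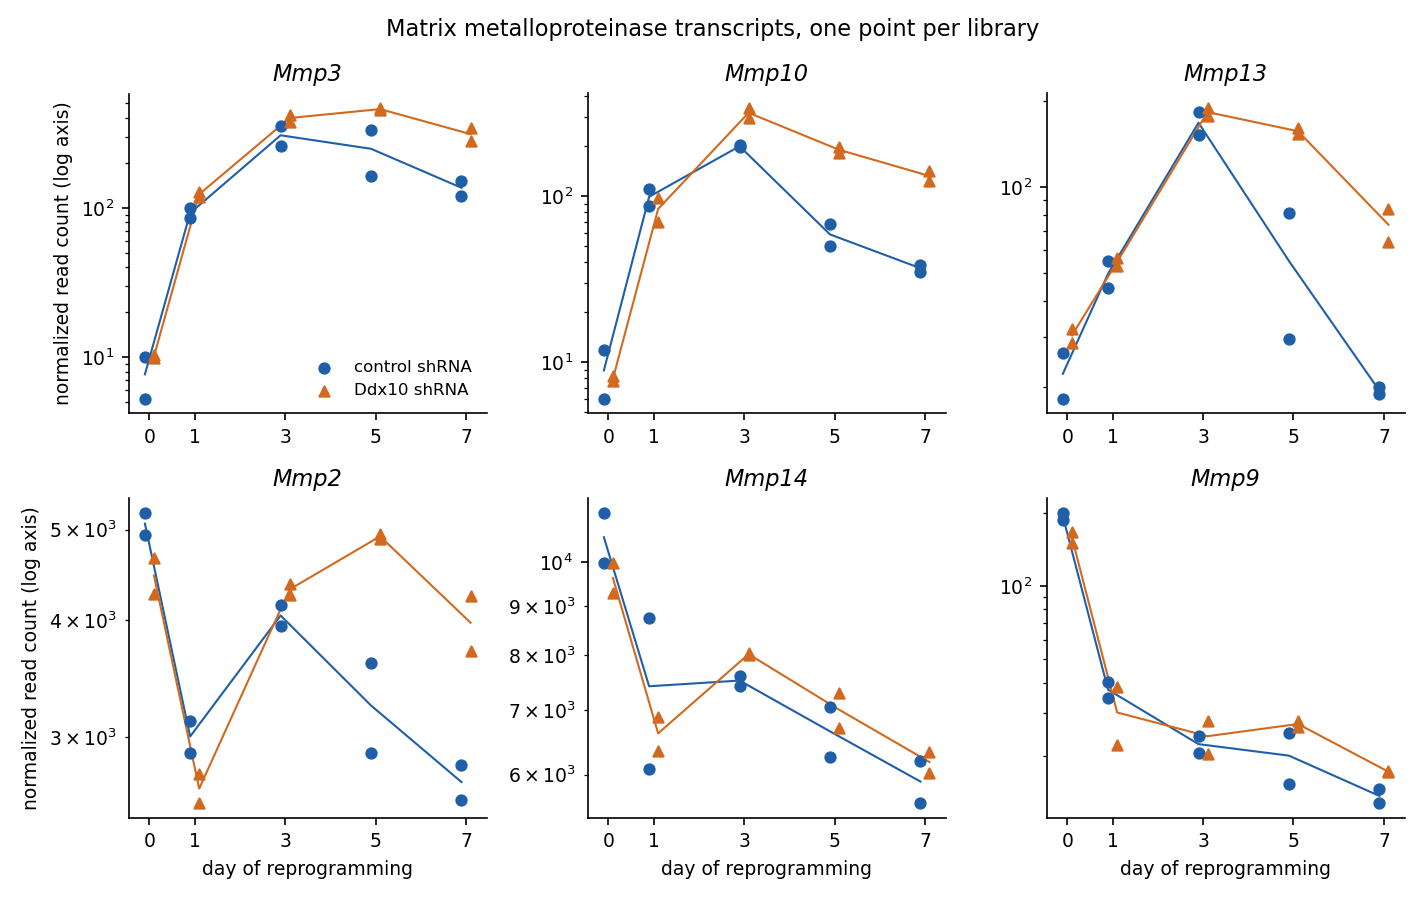
Normalized read counts (log axis, scaled per panel) of the 6 MMP genes against the day of reprogramming, with 1 point per library and lines through the means of 2 libraries (blue circles, control shRNA; orange triangles, Ddx10 shRNA). Mmp3, Mmp10 and Mmp13 climb to day 3 in both arms, and at day 7 both knockdown libraries of these genes and of Mmp2 lie above both control libraries.

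All 3 TIMP transcripts were lower at control day 7 than at day 0. Timp1, which inhibits most secreted MMPs and is known as an inducible gene, stood at 5596 and 6241 at day 0, 3766 and 2627 at day 1, 2069.7 and 2151 at day 3, 1629 and 1781 at day 5 and 1458 and 1614 at day 7. Timp2, both inhibitor and partner of Mmp14, stood at 35558 and 35636, 27059.7 and 21951, 16638 and 16833, 7848 and 11326 and 7323 and 7951 at these days. For both genes every later library was below both of day 0, and for Timp2 the replicates of day 5 were far apart. Timp3, the matrix-bound inhibitor that also blocks several ADAM and ADAMTS proteases, held 25448 and 27109.8 at day 0, 20646 and 20596 at day 1, 14073 and 13853 at day 3, 7521 and 8152 at day 5 and 6898 and 7003 at day 7. Its libraries stepped down from day to day without overlap.

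At control day 7 the difference from day 0 was -1.95 (SE 0.13) for Timp1, -2.22 (SE 0.13) for Timp2 and -1.92 (SE 0.07) for Timp3, and -1.61, -1.28 and -1.02 with quantile scaling. At the earlier days the scaling mattered more: with quantile scaling the day 1 value of Timp2 went from -0.55 to 0.07 and that of Timp3 from -0.35 to 0.27, and at day 3 the falls of Timp2 (-0.17) and Timp3 (-0.06) were no longer called. Timp1 stayed lower at all 4 days under every alternative. Timp1 and Timp3 lie inside Syn1 and Syn3, synapsin genes on the opposite strand, and whether the counting used strand is not given in the sources used here. Group means ran from 67.2 to 189 for Syn1 and from 1536 to 5918 for Timp1. They ran from 18.2 to 54.0 for Syn3 and from 6950 to 26279 for Timp3. The part of synapsin reads in the TIMP values was not tested. Syn1 and Syn3 rose from control day 0 to day 7, by 0.50 (SE 0.18, limma adjusted p = 0.0173) and 1.36 (SE 0.33, limma adjusted p = 0.00147), while the TIMP genes they hold were lower at that day. At control day 1, however, Syn1 fell by 0.71 (SE 0.18, limma adjusted p = 0.00285), in the same direction as Timp1 (-0.91), a call that was lost when only the libraries of both groups were fitted. Timp2 overlaps Cep295nl on its own strand, and reads shared between them cannot be told apart here.

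**Figure D2:**
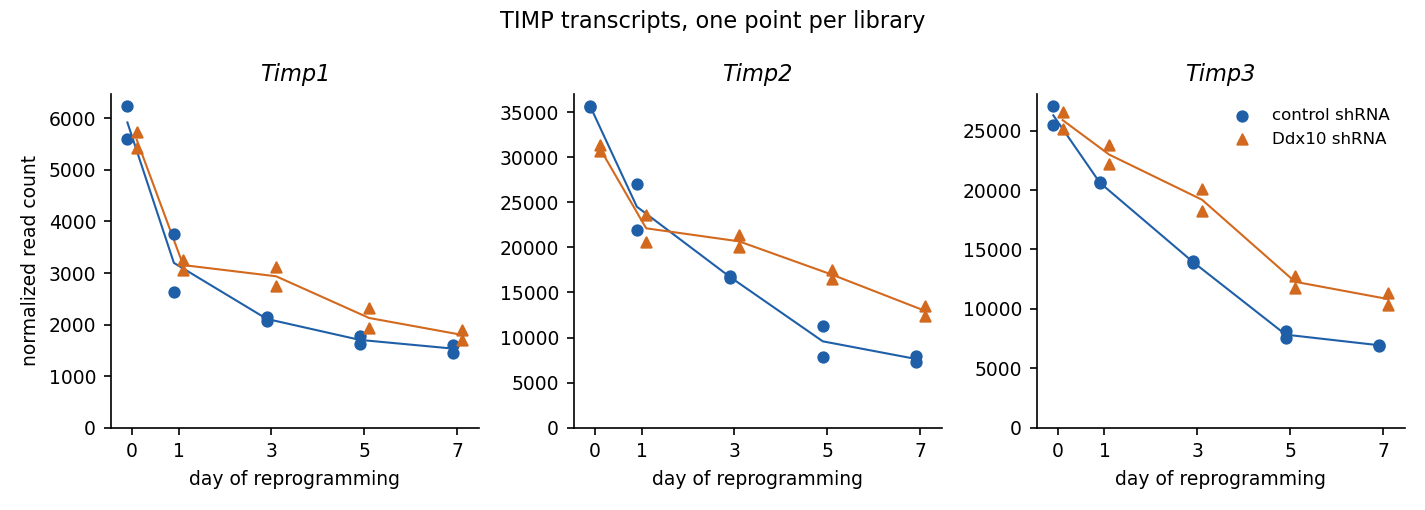
Normalized read counts (linear axis from 0, scaled per panel) of Timp1, Timp2 and Timp3 against the day of reprogramming, with 1 point per library and lines through the means of 2 libraries. All 3 are lower at day 7 than at day 0 in both arms, and the knockdown libraries of Timp2 and Timp3 lie above the control libraries from day 3 on.

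Counted over the control course, 3 of 9 members were higher and 6 lower at day 1, when 28.3% of all genes were called higher and 26.7% lower. The same 3 and 6 members were called at day 3, with 34.9% and 31.3% of all genes, and at day 5, with 37.7% and 32.5%. At day 7, 2 members were higher (Mmp3 and Mmp10) and 6 lower, with 38.6% and 33.7% of all genes. In the knockdown arm 7 members were called at day 1 (50.1% of all genes), 7 at day 3 (60%), 8 at day 5 (64.2%) and 8 at day 7 (67.1%). The directions of called members were those of the control arm, with Mmp13 added among the higher ones at day 7, at 1.25 (SE 0.34), but with quantile scaling Timp2 at days 1, 3 and 5 (0.12, 0.25 and 0.12), Timp3 at day 3 (0.33) and Mmp14 at day 5 (0.03) turned from lower to higher. With quantile scaling the count at control day 3 was 5, of which 3 were higher and 2 lower. All these shares are large, and the members were chosen from such data, so their count is a description only.

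In the knockdown arm the 3 cluster genes also rose from day 0 to day 3, and at day 7 they were higher than in the control arm. Mmp10 stood at 8.26 and 7.69 at knockdown day 0, 98.1 and 69.7 at day 1, 297 and 340.1 at day 3, 198 and 183 at day 5 and 123 and 142 at day 7. From day 3 on both knockdown libraries were above both control libraries. The arms differed by 0.66 (SE 0.26) at day 3, which was not called, 1.69 (SE 0.26) at day 5 and 1.82 (SE 0.26) at day 7. Mmp10 is the member with the largest difference between the arms that stayed called at days 5 and 7 in every alternative.

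Mmp13 was highest at day 3 in both arms, with 176 and 188 in the knockdown libraries, which overlapped the control libraries. After 32.01 and 28.6 at day 0 and 52.96 and 56.4 at day 1, it held 160.4 and 152 at day 5 and 63.9 and 83.6 at day 7. Both late days were above the control libraries without overlap, by 1.66 (SE 0.34) and 1.86 (SE 0.34). The day 5 value rests partly on control day 5 replicate 1, which was low for Mmp3, Mmp13 and Timp2. Without it the Mmp13 difference was 0.94 and no longer called. The call at day 5 was also lost without knockdown day 5 replicate 1 (1.62) and when only the libraries of the groups compared were fitted (1.66). That at day 7 was lost without knockdown day 7 replicate 2 (1.67).

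Mmp3 held 10.3 and 9.88 at knockdown day 0, 128 and 118 at day 1, 378 and 421 at day 3, 451 and 466 at day 5 and 282 and 342 at day 7. In the knockdown arm it was highest at day 5, and at every day from 1 on both knockdown libraries were above both control libraries. The difference was 0.97 (SE 0.29) at day 5, not called and 0.46 without control day 5 replicate 1, and 1.19 (SE 0.29) at day 7. The day 7 call was lost without any 1 of its 4 libraries, with values of 1.03 and 1.35 without control replicates 1 and 2 and 1.33 and 1.05 without knockdown replicates 1 and 2.

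Mmp2 was higher in the knockdown arm at days 5 and 7. It stood at 4273 and 4659.7 at knockdown day 0, 2739.8 and 2552 at day 1, 4259.6 and 4377 at day 3, 4885 and 4954 at day 5 and 3711 and 4247 at day 7. At days 0 and 1 the knockdown libraries were below both control libraries, and from day 3 on above them. The arms differed by -0.19 (SE 0.10) at day 0, -0.18 (SE 0.10) at day 1, 0.61 (SE 0.10) at day 5 and 0.56 (SE 0.10) at day 7, and the first 2 were not called. The day 7 call was lost without knockdown day 7 replicate 2 (0.47), and the day 5 value was 0.45 without control day 5 replicate 1. Against its own day 0 the knockdown arm stood at -0.17 at day 7, which was not called.

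For Mmp14 and Mmp9 no difference between the arms was called at any day. Mmp14 held 9269 and 9972 at knockdown day 0, 6896 and 6356 at day 1, 7999 and 8027 at day 3, 7308 and 6719 at day 5 and 6031 and 6339 at day 7. Its libraries overlapped between the arms at all days but day 3, and the difference was between -0.14 and 0.09 with an SE of 0.12. Mmp9 held 150.4 and 166, 38.2 and 22.05, 20.4 and 27.7, 26.2 and 27.8 and 17.1 and 17.2 at these days. Its differences ran from -0.35 at day 1 to 0.45 at day 5, with an SE of 0.29, so differences of this size were not detectable here.

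Timp2 and Timp3 were higher in the knockdown arm at days 5 and 7, and Timp3 also at day 3. Timp3 held 26604 and 25162 at knockdown day 0, 22171 and 23799 at day 1, 18247 and 20116 at day 3, 12812 and 11757 at day 5 and 10364 and 11300.1 at day 7. The groups of the 2 arms overlapped only at day 0. The difference was 0.16 (SE 0.07) at day 1, 0.46 (SE 0.07) at day 3, 0.65 (SE 0.07) at day 5 and 0.64 (SE 0.07) at day 7, and the last 3 were called in every alternative. Timp2 held 30700.1 and 31304 at knockdown day 0, below both control libraries, then 23616 and 20610.2 at day 1, 21316 and 20015 at day 3, 17471 and 16473 at day 5 and 12435 and 13494 at day 7. From day 3 on Timp2 was above both control libraries, by 0.30 (SE 0.13) at day 3, not called, 0.85 (SE 0.13) at day 5 and 0.76 (SE 0.13) at day 7. The day 5 value was 0.58 without control day 5 replicate 1. The day 5 call of Timp2 was lost when only the libraries of the groups compared were fitted (0.85).

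Timp1 was not called between the arms at any single day. Its knockdown libraries held 5433 and 5739.5 at day 0, 3065 and 3245 at day 1, 3121 and 2753 at day 3, 1941 and 2318 at day 5 and 1704 and 1898 at day 7, above both control libraries at days 3, 5 and 7. The largest difference was 0.47 (SE 0.13) at day 3. Over the mean of days it was 0.19 (SE 0.06), a call that was lost without any 1 of 12 libraries of both arms, with values of 0.16 to 0.20, and in the fit with the replicate number as a block.

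**Figure D3:**
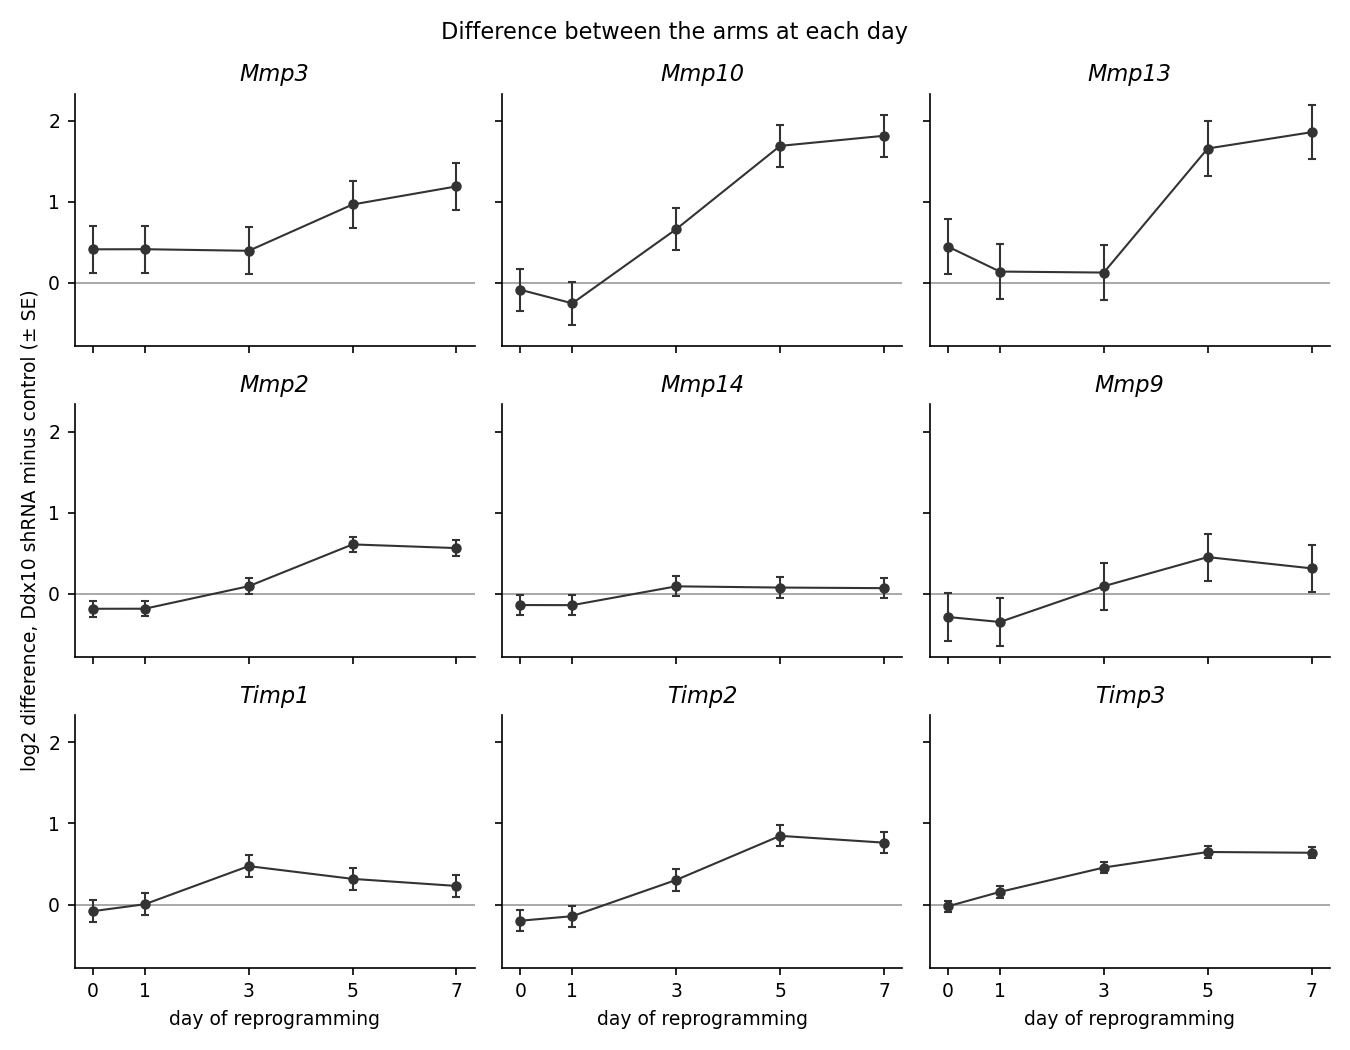
Difference between the arms, Ddx10 shRNA minus control, on the log2(value + 1) scale against the day of reprogramming for the 9 genes, with bars of ± 1 SE from the limma fit and a common axis. The cluster genes reach 1.19 to 1.86 at day 7, Mmp2, Timp2 and Timp3 0.56 to 0.76, and Mmp9, Mmp14 and Timp1 lie between 0.07 and 0.31.

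Between the arms, 0 of 9 members were called at day 0 by limma, when 3.31% of all genes were, and 0 of 9 at day 1, when 0.146% were. At an unadjusted p under 0.05 these counts were 0 and 1. Higher in the knockdown arm were 1 member at day 3 (2.51% of all genes), 5 at day 5 (5.83%) and 6 at day 7 (4.65%), and 0 were lower. Over the mean of days 7 were higher and 0 lower, against 10.3% and 7.46% of all genes. Without knockdown day 7 replicate 2 the day 7 count was 3, and without any other 1 of its libraries it was 5. Since the rule covered all libraries, nothing is read from these counts.

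The knockdown arm also differed in cell type markers, beside 10.3% of all genes called higher and 7.46% lower over the mean of days. Of 8 epithelial markers 7 were lower and 0 higher over the mean of days, and their sum at day 7 was between 11453 and 12187 in the knockdown arm and between 19868 and 21600 in the control arm. Of 12 fibroblast markers 6 were higher and 0 lower, and their sum at day 7 was between 183550 and 202340 against 166440 to 175250. Of 14 macrophage markers 3 were higher and 0 lower, with a sum at day 7 of between 1472 and 1557 against 1290 to 1298. The 9 pluripotency markers summed to between 5075 and 5455 at knockdown day 7 and to between 3883 and 4166 at control day 7, with 0 called over the mean of days by limma and 1 at an unadjusted p under 0.05. Most of each sum was Tdh, a threonine dehydrogenase, with means of 3848 and 2364 (0.70, SE 0.10, limma adjusted p = 0.000578), the only marker of the 9 called at day 7. Of the 9, 7 had values below 0 at day 7 (Nanog, Esrrb, Zfp42, Dppa5a, Dppa4, Utf1 and Tdgf1), and the median of the list was -0.42. The part of cell composition in the differences of the MMP and TIMP genes was not tested.

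The change from day 0 to day 7 was compared between the arms by an interaction term in the same fit. It was called as higher for 4 of 9 members, against 3.92% of all genes: 1.90 (SE 0.37) for Mmp10, 0.96 (SE 0.19) for Timp2, 0.75 (SE 0.14) for Mmp2 and 0.66 (SE 0.10) for Timp3. For Mmp13 it was 1.41 (SE 0.47) and for Mmp3 0.78 (SE 0.41), neither of which was called. Mmp9, Timp1 and Mmp14 had values of 0.60, 0.31 and 0.21. The Mmp10 call was lost when only the libraries of the 4 groups were fitted, where the value was again 1.90 and the SE 0.49. Since the members were chosen with results of these data in view, their count is a description only.

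To compare levels between genes, values were divided by exon length. Per kb of exon, the order at control day 0 was Timp2 (9598), Timp1 (6665), Timp3 (5565), Mmp14 (2536), Mmp2 (1649), Mmp9 (60.8), Mmp13 (8.33), Mmp10 (5.19) and Mmp3 (4.26). The libraries of the last 3 genes overlapped in part, so Mmp10 is not set apart from either neighbour. At control day 7 the same 3 inhibitors and Mmp14 led, at 2059 for Timp2, 1729.8 for Timp1, 1472 for Timp3 and 1411 for Mmp14, followed by Mmp2 (873). Timp3 and Mmp14 overlapped there. Below them the order had turned over: Mmp3 (75.6) and Mmp10 (21.4) stood above Mmp13 (7.27), and Mmp9 (4.30) was last, without overlap between neighbours. At knockdown day 7 Timp3 (2294) came before Timp1 (2028), and Mmp3, Mmp10 and Mmp13 stood at 173, 76.95 and 27.6 per kb.

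Summed per kb, the 3 inhibitors exceeded the 6 enzymes in every library. The ratio of the TIMP sum to the MMP sum was 4.77 and 5.51 in the control libraries of day 0, 5.01 and 5.09 at day 1, 2.79 and 2.89 at day 3, 2.16 and 2.18 at day 5 and 2.23 and 2.17 at day 7. It stood lower from day 3 on than at days 0 and 1 without overlap. In the knockdown arm it was 5.45 and 5.10, 5.38 and 5.74, 3.500 and 3.313, 2.55 and 2.62, and 2.57 and 2.55 at the same days. From day 1 on both knockdown libraries had a higher ratio than both control libraries. A constant factor per library cancels in this ratio, but quantile scaling is not such a factor. The ratio was not recomputed with it. With that scaling the control day 3 differences from day 0 went from -1.09 to -0.17 for Timp2 and -0.91 to -0.06 for Timp3. Those of Mmp14 and Mmp2 went from -0.49 to 0.01 and from -0.33 to -0.06, while Timp1 stayed lower. The enzyme sum is mostly Mmp14 and Mmp2, and the ratio is of transcripts, since protein and activity were not measured.

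**Figure D4:**
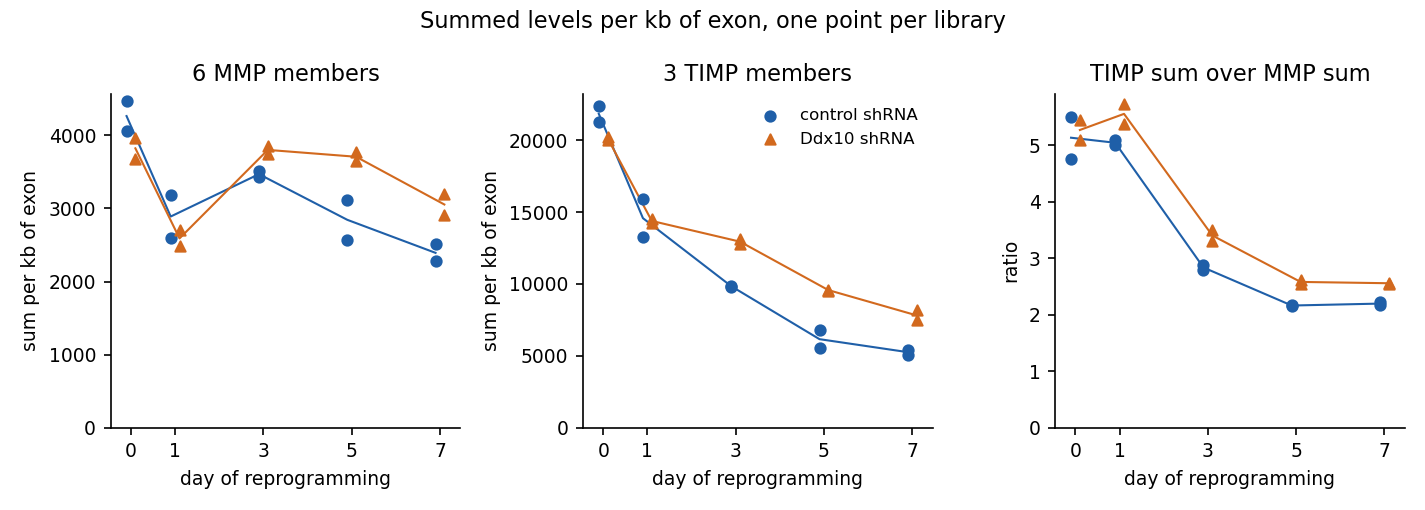
Sum per kb of exon of the 6 MMP genes, the same for the 3 TIMP genes, and the ratio of the TIMP sum to the MMP sum, against the day of reprogramming with 1 point per library, lines through the means and axes from 0. The ratio lies between 4.77 and 5.74 at days 0 and 1 and between 2.16 and 2.62 at days 5 and 7.

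Across the 20 libraries the members fell into patterns that can be given as correlations of log2(value + 1), which share the courses of both arms. Timp2 and Timp3 had a Pearson correlation of 0.965, Timp1 and Timp2 0.928, and Timp1 and Timp3 0.907. Mmp3 and Mmp10 had 0.918, Mmp10 and Mmp13 0.855, and Mmp3 and Mmp13 0.732. Mmp9 went with Timp1 (0.926) and against Mmp3 (-0.886). Among 12071 genes with a mean of at least 50, the genes most like each member over the 20 libraries were Lum for Mmp3 (0.983), Chrna1 for Mmp10 (0.982), Spp1 for Mmp13 (0.955), Nynrin for Mmp2 (0.902), Atf5 for Mmp9 (0.989) and Agpat1 for Mmp14 (0.960). For the inhibitors they were Cxcl12 for Timp1 (0.987), Tspan9 for Timp2 (0.982) and Lamb1 for Timp3 (0.989). The next in likeness were Fmo6 and Sbspon for Mmp3, Ces2g and Fam196a for Mmp10, Dusp6 and Hspa12b for Mmp13, Trp53i11 and Naglu for Mmp2, Boc and Serpinh1 for Mmp9, Pold4 and Hgs for Mmp14, Qsox1 and Cxx1b for Timp1, Mical2 and Itm2a for Timp2, and 5031439G07Rik and Ptprm for Timp3.

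Of 18 other genes of both families, 11 were in the table and 7 (Mmp1a, Mmp1b, Mmp7, Mmp8, Mmp20, Mmp21 and Timp4) were not analysed here. From control day 0 to day 7, 5 of the 11 rose and 6 fell, against 38.6 and 33.7% of all genes. The rises were Mmp27 (2.77), Mmp24 (1.83), Mmp28 (1.42), Mmp15 (0.83) and Mmp19 (0.44), and the falls Mmp23 (-3.43), Mmp25 (-2.43), Mmp11 (-2.24), Mmp12 (-2.18), Mmp16 (-2.15) and Mmp17 (-1.05). Mmp11, a stromelysin of stromal cells, went from 1372 ± 18.8 to 289 ± 13.5 (SD, n = 2; limma adjusted p = 1.6e-11), and Mmp28, known as epilysin, from 473 ± 1.94 to 1271 ± 114 (limma adjusted p = 2.71e-10). Of the membrane-type enzymes on this list, Mmp15 and Mmp24 rose to day 7, while Mmp16, Mmp17 and Mmp25 fell, as Mmp14 did. With quantile scaling Mmp27 (1.07), Mmp24 (0.64) and Mmp19 (0.02) were no longer called, Mmp24 was not called with a pseudocount of 0.1, and 1 library of Mmp27 at day 0 was listed at 0. The call of Mmp19 (limma adjusted p = 0.0479) was also lost without any 1 of the 4 libraries, with values of 0.35 to 0.54, and with the replicate number as a block (0.44, limma adjusted p = 0.057).

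Mmp12, the macrophage elastase, lies in the chromosome 9 cluster between Mmp13 and Mmp3. It held 74.6 and 123 at control day 0, 12.2 and 7.63 at day 1, 137 and 90.7 at day 3, 44.9 and 81.6 at day 5 and 23.4 and 17.9 at day 7. Like Mmp9 it was low at day 1, and like its cluster neighbours it was high at day 3. In the knockdown arm it held 163 and 163, 9.74 and 7.75, 135 and 145, 92.1 and 73.6 and 64.8 and 58.3. The 14 macrophage markers also summed to more at day 3 than at day 1, with 1187 to 1234 after 559 to 651 in the control arm and 1401 to 1485 after 636 to 738 in the knockdown arm. From control day 0 to day 3, 9 of the 14 were lower and 3 higher, against 31.3 and 34.9% of all genes. The higher ones were Laptm5, Cd68 and Itgam, and Csf1r had a mean of 237 at day 0, 7.14 at day 1 and 10.9 at day 3. The part of macrophage RNA in the level of Mmp12 was not tested. Mmp12 was higher in the knockdown arm by 0.59 (SE 0.14) over the mean of days (limma adjusted p = 0.011) and by 1.54 (SE 0.32) at day 7 (limma adjusted p = 0.00937). The day 7 call was lost without the second control library of that day (1.36) and without either of its knockdown libraries (1.47 and 1.62).

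Over the mean of days Mmp19 (0.33, limma adjusted p = 0.0134) and Mmp23 (0.39, limma adjusted p = 0.0248) were also higher in the knockdown arm, and Mmp17 was lower (-0.26, limma adjusted p = 0.0215). The other 7 of the 11 genes were not called. Of all genes 10.3% were higher and 7.46% lower in this comparison. The Mmp23 call was lost without any 1 of control day 3 replicate 1, control day 5 replicate 1, control day 7 replicate 1, knockdown day 5 replicate 2 and knockdown day 7 replicate 1, with values of 0.33 to 0.36. For the change from day 0 to day 7, 0 of the 11 differed between the arms by limma, and 1 did at an unadjusted p under 0.05. The median difference of the 11 genes over the mean of days was 0.21, against 0.31 for the 9 members and 0.00 for all genes.

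**Figure D5:**
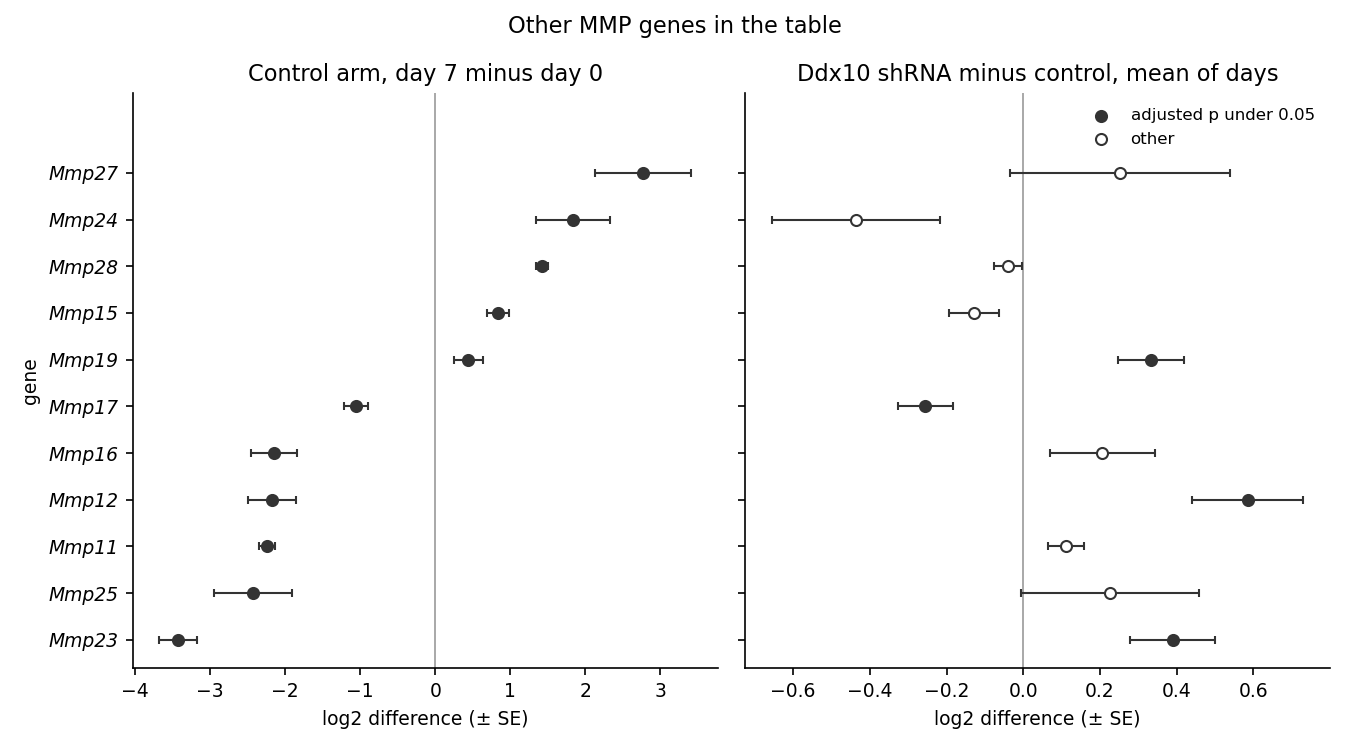
Log2 differences of the 11 other MMP genes with bars of ± 1 SE, on the left for control day 7 minus day 0 and on the right for Ddx10 shRNA minus control as the mean of days. Filled points have an adjusted p under 0.05 in the limma fit: all 11 on the left, with 5 above and 6 below 0, and on the right Mmp12, Mmp19 and Mmp23 above and Mmp17 below 0.

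Genes that act on MMP proteins fell widely in the control arm. Of 17 activators and regulators in the table, 13 fell and 3 rose from day 0 to day 7, against 33.7 and 38.6% of all genes. Plau, the urokinase whose product plasmin opens proMMPs, fell by 4.25 on the log2 scale (SE 0.15, limma adjusted p = 8.25e-13). Tfpi2, a matrix-bound serine protease inhibitor, fell by 4.02. Cav1, the caveolin that takes part in the uptake of membrane proteins, fell by 2.67. Over the mean of days 10 of the 17 were higher in the knockdown arm and 0 lower, against 10.3 and 7.46% of all genes. The list median was 0.16. Plau was higher by 0.71 (SE 0.07, limma adjusted p = 8.14e-06), Tfpi2 by 0.60 (SE 0.09, limma adjusted p = 0.000356) and Lrp1, an endocytic receptor that clears MMPs and TIMPs, by 0.25. At day 0, however, both knockdown libraries of Plau and of Lrp1 were below both control libraries. The means there were 2024 against 2756 for Plau and 38785 against 46068 for Lrp1.

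Of 26 ADAM and ADAMTS genes, a related family of which Timp3 can inhibit several proteases, 12 rose and 12 fell from control day 0 to day 7. The shares of all genes were 38.6 and 33.7%. The 4 with the smallest p fell: Adamts5, the aggrecanase, by 4.61 (SE 0.07, limma adjusted p = 8.1e-17), Adamts1 by 3.08, Adamts12 by 2.84 and Adam12 by 2.33. In the mean arm difference 9 were higher and 1 lower, against 10.3 and 7.46% of all genes. Adamts5 was higher by 0.54 (SE 0.03, limma adjusted p = 2.03e-07), Adam8 by 0.67, Adam9 by 0.36 and Adam23 by 0.33.

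Among 25 transcription factors and cytokines known to induce MMP genes, 18 fell and 3 rose from control day 0 to day 7. The shares of all genes were 33.7 and 38.6%. The AP-1 genes Fosl2 and Jun fell by 2.10 (SE 0.08, limma adjusted p = 1.65e-12) and 1.23 (SE 0.07, limma adjusted p = 1.39e-10), Ets1, a factor of the ETS family, by 2.28, and Hbegf, a ligand of the EGF receptor, by 4.44. The earlier days differed from day 7: at control day 1, 8 were higher and 10 lower than at day 0, against 28.3 and 26.7% of all genes, and at day 3, 6 were higher and 13 lower, against 34.9 and 31.3%. Fos, the partner of Jun in AP-1, had control means of 442 at day 0, 1306 at day 1, 1252 at day 3, 321 at day 5 and 329 at day 7. It was higher than at control day 0 by 1.56 (SE 0.16, limma adjusted p = 8.77e-07) at day 1 and by 1.51 (SE 0.16, limma adjusted p = 7.25e-07) at day 3. In the knockdown arm its means were 403, 1458.5, 673, 439 and 322 at days 0, 1, 3, 5 and 7. At day 3 both knockdown libraries of Fos were below both control libraries. Fosl2 went the other way in the control arm, with means of 5606 at day 0, 1679.5 at day 1 and 1069 at day 3. Fos and Etv4 were named here after their values were seen. The part of Fos and other AP-1 genes in the levels of the MMP genes was not tested. Etv4, another ETS factor, went from 455 at day 0 to 973 at day 1 and 1332 at day 3 (1.55, SE 0.16, limma adjusted p = 5.99e-07), and stood at 483 and 450.02 at days 5 and 7. Between the arms, as the mean of days, 10 were higher and 4 lower in the knockdown, against 10.3 and 7.46% of all genes. Hbegf was higher by 0.38 (SE 0.05, limma adjusted p = 0.000103) and Elk3 by 0.17, while Jund, another AP-1 gene, was lower, at -0.28 (SE 0.03, limma adjusted p = 4.16e-05), as was Ets2, at -0.35. The list thus moved in both directions.

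Of 23 matrix substrates, 18 fell and 3 rose from control day 0 to day 7, against 33.7 and 38.6% of all genes. With quantile scaling 16 fell and 6 rose. Tnc, the tenascin of remodelling matrix, fell by 5.63 (SE 0.09, limma adjusted p = 8.1e-17), Bgn, a small proteoglycan, by 4.83, and the collagen V chains Col5a1 and Col5a2 by 3.53 and 3.27. Over the mean of days 16 of the 23 were higher in the knockdown arm and 0 lower, against 10.3 and 7.46% of all genes. The list median was 0.20. Nid1, which links laminin and collagen IV in basement membranes, was higher by 0.46 (SE 0.04, limma adjusted p = 3.78e-06), Tnc by 0.42 (SE 0.04, limma adjusted p = 8.07e-06), Lama4 by 0.27 and Col4a1 by 0.25. The called substrates and the 7 called members were all higher over the mean of days. Since both lists were chosen with results of these data known, this is a description only.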

How the data were processed

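Messenger RNA libraries were prepared from TRIzol RNA of reprogramming cells and sequenced in paired ends, per the labels' protocols. The signal values are normalized read counts per gene as deposited by the authors, in 1 table of 15757 genes and 20 libraries. Per the submitters' processing notes, the mm10 genome was used, and the tools listed, with neither order nor purpose, are DESeq2 1.22.0, RSEM 1.2.22, STAR 2.5.2a and Trim Galore 0.4.4. The normalization, annotation and gene filter are not given in the sources used here. With a step taken as the estimated worth of 1 read in a library, only 42.9 to 63.4% of values up to 20 steps lay within 0.1 of a whole number of steps, so reads were not recovered and no count test was run. No gene had a maximum below 7.61, and 0 pairs of columns were identical.

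Values were taken as log2(value + 1) and fitted with limma 3.58.1 (R 4.3.3; trend and robust empirical Bayes, 10 group means, 20 libraries, 10 residual degrees of freedom), with Benjamini-Hochberg adjustment over 15757 genes and a threshold of 0.05. Tested on simulated data of 15757 genes, the fit recovered 39% of 100 genes changed by 0.5 and 86% of 100 changed by 1 in the arm comparison at day 7, with 9 false calls, and 87% and 97% over the mean of days, with 5. The changed genes were drawn without those of lowest mean level, and the noise was normal. At day 7 the median SE of all genes was 0.156, against 0.26 to 0.34 for Mmp3, Mmp9, Mmp10 and Mmp13. The recovery given thus does not describe these 4 members. Replicates are biological in the series text. Whether they were separate cultures is not stated, and p-values thus measure only the spread between these samples, which may be technical. Lengths and positions came from the GENCODE annotation, and 23 gene names that were blank or altered were restored from identifiers. The members and all gene lists were chosen with earlier results of these data known. Beside the members, the text names the called genes of the list of other MMP genes, the 4 called genes with the smallest p of each further list in control day 7 against day 0 and in the mean arm difference, Ddx10, the synapsin genes, cell type markers and the 3 genes most correlated with each member. One gene that this rule gives is not reported here. Csf1r, Fos, Etv4 and Cep295nl were named after their values or positions were seen. Alternatives were pseudocounts of 0.1 and 5, quantile scaling, no filter, a mean of at least 50, a replicate block, library weights, the compared libraries alone, and each library left out.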

Additional observations from a re-analysis of the deposited data

Results flagged for a closer look

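The change from day 0 to day 7 differed between the arms, by the interaction term of the limma fit, for 4 members and for 14 of the other genes named above, each given as knockdown minus control on the log2 scale. The members were Mmp10 (1.90), Timp2 (0.96), Mmp2 (0.75) and Timp3 (0.66), and for these the value is a description. The Mmp10 call was lost when only the libraries of the 4 groups were fitted, with the same value and an SE of 0.49 in place of 0.37. Among activators and regulators they were Plau (2.02), Tfpi2 (1.70) and Lrp1 (0.68). Adamts5 stood at 0.78. Among the inducers the values were 1.16 for Hbegf, 0.74 for Jun, 0.57 for Ets1, 0.48 for Elk3 and -0.47 for Ets2. The matrix substrates were Bgn (1.12), Col5a1 (1.00), Tnc (0.92), Nid1 (0.90) and Col4a1 (0.48). The calls of Ets1 and Ets2 were lost without several single libraries, with values of 0.47 to 0.60 and -0.50 to -0.35, that of Ets2 also with only the 4 groups fitted, and that of Elk3 without knockdown day 7 replicate 2 (0.44). All these genes but Ets2 fell less, or rose more, in the knockdown arm. Some of them, such as Plau, Lrp1, Bgn, Col5a1, Mmp2 and Timp2, also began lower in both knockdown libraries of day 0 than in both control libraries. No group had the 4 libraries that a check for single outlying libraries needs.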

How the results depend on the processing

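Of 783 recomputed arm differences of the members, 757 moved by less than the spread between replicates and 26 moved more. The replicate block, library weights, a mean of at least 50 and the compared libraries alone could change only SEs and calls. Both libraries of a group weighed the same in them, so the differences stayed as they were. The filter removed no gene, so the fit without it repeated the main fit. Only pseudocounts, quantile scaling and libraries left out could move values, here and below. A reversal of sign was counted only for called differences. Of 333 values that belonged to these, 0 reversed and 310 were still called. For the time courses and the interaction, 884 of 1008 values moved by less than that spread and 116 moved more. The other 8 reversed, among 844 values that belonged to a called difference. The reversals all came with quantile scaling, in which these values moved upward while the median of all genes shifted by -0.00168 to -0.0204 at day 1, -0.0673 to -0.0739 at day 3 and -0.122 to -0.151 at days 5 and 7: Timp2 at control day 1 (0.067) and at knockdown days 1 (0.12), 3 (0.25) and 5 (0.12), Timp3 at control day 1 (0.27) and knockdown day 3 (0.33), and Mmp14 at control day 3 (0.0077) and knockdown day 5 (0.028). That scaling also brought the members called at control day 3 to 5. The members called between the arms at day 3 were 2 with a mean of at least 50, 2 with library weights and 4 with only the compared libraries, and at day 5 they were 3 with only the compared libraries. With single libraries left out the count was 0 to 1 at day 1 and 3 to 5 at day 7. With the replicate block the members called were 0, 0, 1, 6 and 6 at days 0, 1, 3, 5 and 7 and 6 over the mean of days, where Timp1 was lost (0.19). Same-numbered libraries of the arms deviated with correlations of -0.05, 0.08, 0.02, 0.005 and 0.03 at these days, so the numbers were not taken to pair them.

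All genes called between the arms numbered 521 at day 0, 23 at day 1, 751 at day 3, 1376 at day 5 and 972 at day 7, and 100 to 530, 18 to 743, 74 to 296, 459 to 974 and 286 to 553 with single libraries left out. With only the compared libraries they were 2 at day 0, 0 at day 1 and 1725 at day 7. Library weights gave 1390, 2188 and 2127 at days 3, 5 and 7, and 1 at day 1. Quantile scaling gave 304 at day 0. At day 1 the other settings gave 12 to 41. The interaction called 1005 genes and 283 to 929 with libraries left out. The cause of these changes was not tested. Of 1157 recomputed values of 67 named results outside the members, 33 lost their call and 0 reversed. As for the members, only pseudocounts, quantile scaling and libraries left out could move these values. With 2 libraries a group, low members such as Mmp13 and Mmp9 carry SEs of 0.34 and 0.29, and differences near these were not detectable.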
